A study of Mus musculus with 2 samples.

Results

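The genes described here build and maintain the primary cilium and its gate, and many of them are mutated in Joubert syndrome, a malformation of the cerebellum and brainstem. They were chosen by name as a list of 32 gene symbols, by a rule that uses no measured value, although earlier results of these data were known when the list was drawn up. All 32 matched a row among the 43346 mouse genes of the deposited tables. Of these, 31 belong to the 21461 nuclear protein-coding genes of the annotation, and Tctn2 is typed there as a processed transcript. Total RNA of hindbrain, the part of the brain that holds the cerebellum, pons and medulla, came from healthy mice of the strain B6NTac;B6NCrl/Lap at postnatal day 0, with both sexes pooled and no genetic change or treatment named. The 2 libraries form 1 group: replicate 1 was prepared from 15 mice, and replicate 2 from a pool whose size is not stated. Ribosomal RNA had been removed, RNA over 200 nt was kept, spike-in RNA was added, and stranded read pairs were sequenced. The labels give both libraries 1 donor identifier, which leaves unclear how far their difference is biological. No p-values were computed, because with 2 libraries the smallest p of an exact permutation of signs is 0.5.

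A primary cilium is a single non-motile projection that most neural progenitors, neurons and glia carry, and it receives Sonic hedgehog and other signals. At its base lies the transition zone, a gate of interlocking protein modules that controls which membrane and soluble proteins enter. Intraflagellar transport trains carry cargo up and down the microtubule axoneme, and the BBSome, a coat-like complex, takes membrane receptors out of the cilium.

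The libraries held 54313140 and 77142270 expected counts, of which the 32 genes took 45850 and 62948, with 186 to 16824 counts per gene in replicate 1 and 216 to 21766 in replicate 2. Levels are in TPM (counts divided by effective transcript length and scaled to a fixed sum, which allows genes to be compared), and the coding genes together held 28.1% of that sum in replicate 1 and 19.3% in replicate 2. A typical coding gene at 1 TPM or more in both therefore had a 1.44-fold lower TPM in replicate 2, a factor that every TPM below shares, so ratios between libraries were taken from counts scaled with TMM instead. All 10 hindbrain markers reached 1 TPM in both libraries, from Hoxb4 at 1.41 ± 0.339 TPM (SD, n = 2) to Zic1 at 71.9 ± 9.31 TPM, against 2 of 10 forebrain markers, Lhx2 and Neurod6. Neuron, radial glia, granule cell progenitor and Purkinje cell lists were each at 1 TPM in full, as were those of choroid plexus, endothelium and red blood cells, and 5 of 6 microglia markers. In such a mixture of cells, fewer cells of a type and less RNA per cell cannot be told apart.

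Nearly all of the genes were present at low, similar levels. A level of 1 TPM or more in both libraries was reached by 30 of the 32, against 54.6% of nuclear protein-coding genes. The exceptions were Cep290 and Ofd1. On average over the libraries, 29 genes lay between 1 and 10 TPM and 2, Ahi1 and Ift20, above 10. The median of the 32 was 3.88 TPM, above the 2.07 TPM of all coding genes and below the 8.11 TPM of coding genes at 1 TPM in both libraries. The highest gene exceeded the lowest by 92.3-fold in replicate 1 and 190-fold in replicate 2.

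**Figure D1:**
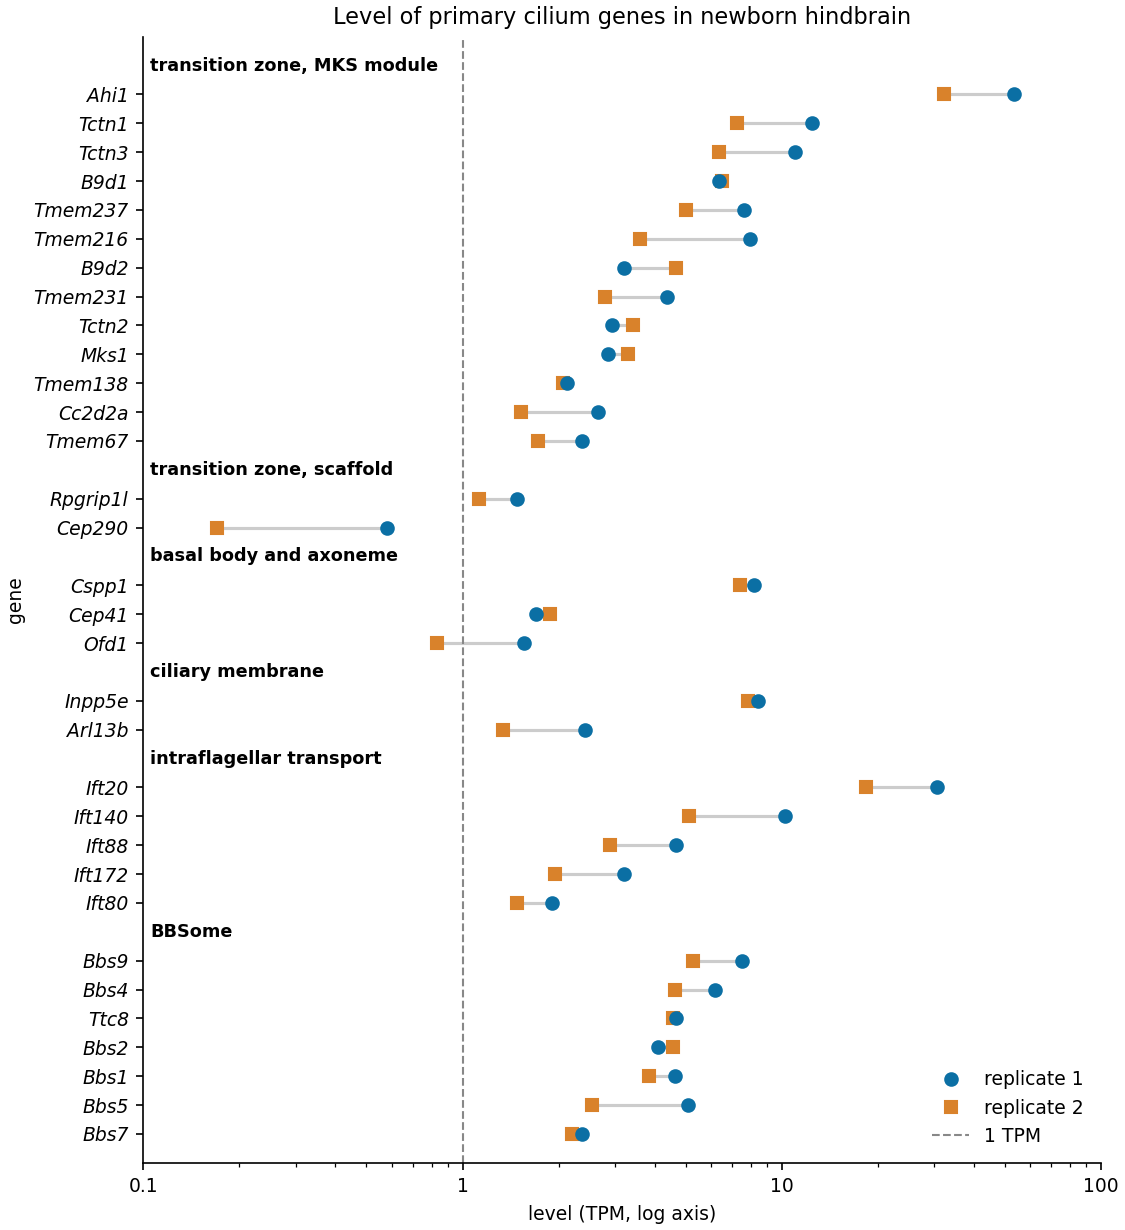
Each row is 1 gene, grouped by role, and the horizontal log axis gives its level in TPM in replicate 1 (circles) and replicate 2 (squares), with a dashed line at 1 TPM. Most genes sit between 1 and 10 TPM, Ahi1 and Ift20 lie to the right in both libraries, Cep290 lies left of the line in both and Ofd1 in replicate 2 alone.

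Ahi1 stood apart among the transition zone genes. It encodes jouberin, a scaffold protein of the MKS module, the transition zone layer named after Meckel syndrome. Ahi1 (chromosome 10, 20952547 to 21080429, plus strand, mm10) had 53.54 TPM in replicate 1 and 32.34 TPM in replicate 2, or 42.9 ± 15.0 TPM (SD, n = 2), and took 23.4% and 20.4% of the summed TPM of the 32 genes. It ranked first in both libraries, and 95.8% of coding genes had a lower mean level. Its log2 ratio of scaled counts, replicate 2 over replicate 1, was -0.14, with a counting interval of -0.17 to -0.11.

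The tectonic genes encode secreted and membrane-bound proteins of the MKS module. Tctn1 had 12.42 and 7.24 TPM in replicates 1 and 2, and Tctn3 had 10.98 and 6.36 TPM. Tctn2 was lower, at 2.93 and 3.43 TPM. The order Tctn1, Tctn3, Tctn2 was the same in both libraries, and the step from Tctn1 to Tctn3 was 0.18 ± 0.01 on the log2 scale (SD of the within-library difference, n = 2). That step depends on which transcripts are counted. With transcripts typed as coding alone, Tctn1 had 9.44 and 4.70 TPM and Tctn3 had 9.24 and 5.78 TPM, so Tctn3 was the higher in replicate 2.

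The B9 domain genes encode 3 partners in this module. B9d1 had 6.35 and 6.50 TPM, B9d2 had 3.21 and 4.67 TPM, and Mks1 had 2.85 and 3.31 TPM. All of these had a higher TPM in replicate 2, unlike 26 of the 32 genes, whose TPM was higher in replicate 1.

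The transmembrane genes of the module covered a narrow range. Tmem237 had 7.64 and 5.0 TPM, Tmem231 4.38 and 2.79 TPM, and Tmem67, which encodes meckelin, a receptor-like protein, 2.37 and 1.73 TPM. Cc2d2a, a C2 domain scaffold of the same layer, had 2.66 and 1.52 TPM. In replicate 1 all 13 genes of the module lay above 2 TPM, and in replicate 2 Tmem67 and Cc2d2a did not.

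Tmem216 and Tmem138 are neighbours on chromosome 19, transcribed from the minus strand with 14239 nt and no annotated gene between them, and both encode small membrane proteins linked to Joubert syndrome. Tmem216 had 7.96 TPM in replicate 1 and 3.60 TPM in replicate 2. Tmem138 had 2.13 and 2.07 TPM. Tmem138 was therefore lower in both libraries, by -1.85 and -0.77 on the scale of log2(TPM + 0.1), but the size of the gap was not stable (-1.31 ± 0.77, SD, n = 2). Their scaled counts moved in opposite directions, with log2 ratios of 0.47 for Tmem138 and -0.58 for Tmem216. Exons of Tmem216 overlap those of Cpsf7 on the opposite strand.

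The scaffold genes of the transition zone were the lowest group. Rpgrip1l, which anchors the transition zone at the base of the cilium, had 1.48 and 1.13 TPM. Cep290, which spans the space between microtubules and membrane, had 0.58 and 0.17 TPM, from 368 and 216 counts over a single annotated transcript of 8006 nt. It was the lowest of the 32 in both libraries, lay 1.86 ± 0.61 below Ofd1 on the log2 scale (SD, n = 2), and still exceeded 36.5% of coding genes.

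Genes of the basal body and axoneme lay between 1.20 and 7.79 TPM on average. Cspp1, which stabilises ciliary microtubules, had 8.18 and 7.40 TPM. Cep41, needed for tubulin glutamylation in the axoneme, had 1.7 and 1.88 TPM. Ofd1, a centriolar satellite and basal body gene on the X chromosome, had 1.56 and 0.83 TPM. The deposited intervals of Cspp1 (8.75 to 12.90 TPM in replicate 1) and of Cep41 (1.83 to 2.86) lay wholly above the deposited point values, so these levels depend on how reads were divided among transcripts.

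Of the ciliary membrane genes, Inpp5e, a lipid phosphatase that sets the phosphoinositide content of the ciliary membrane, had 8.43 and 7.82 TPM. Arl13b, a small GTPase that retains Inpp5e in the cilium, had 2.42 and 1.34 TPM. Inpp5e was the higher in both libraries.

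Among intraflagellar transport genes, Ift20 was highest and the others were spread below it. Ift20, the small subunit that also works at the Golgi, had 30.56 and 18.43 TPM (24.5 ± 8.58, SD, n = 2). Ift140, a subunit of the retrograde complex IFT-A, had 10.25 and 5.13 TPM. In the anterograde complex IFT-B, Ift88 had 4.65 and 2.90 TPM, Ift172 had 3.21 and 1.95 TPM and Ift80 had 1.91 and 1.48 TPM. The 5 genes kept this order in both libraries, and Ift20 exceeded Ift80 by 16.0-fold and 12.5-fold. For Ift80 the deposited interval in replicate 2 reached from 1.5 to 15.78 TPM, so its place in that order is uncertain. The place of Ift88 is uncertain too. With transcripts typed as coding alone, Ift88 had 1.39 and 1.67 TPM, below Ift172 in both libraries, and Ift140 had 5.2 and 3.44 TPM.

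The 7 BBSome genes lay close together in level. Bbs9 had 7.51 and 5.28 TPM, Bbs4 6.19 and 4.62 TPM, and Ttc8, also known as Bbs8, 4.66 and 4.55 TPM. Bbs2 had 4.09 and 4.58 TPM, Bbs1 4.63 and 3.85 TPM, Bbs5 5.10 and 2.55 TPM, and Bbs7 2.37 and 2.20 TPM. Highest and lowest differed by 3.17-fold in replicate 1 and 2.40-fold in replicate 2, a log2 span of 1.42 ± 0.28 on log2(TPM + 0.1) (SD, n = 2). Bbs9 was the highest and Bbs7 the lowest in both libraries, and the order between them changed. With transcripts typed as coding alone, Bbs5 (1.76 TPM) and Ttc8 (2.05 TPM) lay below Bbs7 (2.11 TPM) in replicate 2. Bbip1, the remaining subunit of the complex, had 4.0 ± 1.15 TPM (SD, n = 2), inside the range of the 7 genes.

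Ordered by mean level, the 32 genes form 31 neighbouring pairs, of which 9 differed by more than 2 SD of the difference within a library. Large steps stood at the ends of the order: Ahi1 exceeded Ift20 by 0.81 ± 0.00 on the log2 scale, Ift20 exceeded Tctn1 by 1.32 ± 0.03, Ift80 exceeded Rpgrip1l by 0.38 ± 0.02, and Ofd1 exceeded Cep290 by the step given above (SD, n = 2). The other 5 such steps were at most 0.18. From Tctn3 to Ift80 most neighbours did not differ beyond their spread. An SD from 2 libraries is itself imprecise, so pairs can pass this limit without a real difference. The pairs were also formed by sorting on the same levels. The number that would pass without any difference was not computed, so the count of 9 and this order are a description.

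Scaled counts of most genes were close between the libraries. Of the 32, 15 lay above 0 and 17 below, with a median log2 ratio of -0.10 against 0.00 for coding genes. At least 1.5-fold higher in replicate 2 were 5 genes, against 14.7% of all genes that had 10 or more counts on average, and at least 1.5-fold lower were 2, against 9.88%. Those genes include many of low count or without a coding type. Among coding genes at 1 TPM or more in both libraries the shares were smaller, 4.09% higher and 2.56% lower, and of the 29 members in that class 4 were higher (B9d2, Mks1, Ift88 and Bbs7) and 1 lower (Bbs5). How the members' count reads thus depends on the set of genes beside it. The members' median level lies below that of this class, as given above. Counting error alone was small: for 27 of the 32 genes the 95% counting interval left out 0. That interval covers read sampling only and comes from reads without molecular identifiers. No share over all genes stands beside this count, so it cannot be read as particular to these genes.

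Among the 5 higher genes, 3 belong to the MKS module. The 13 genes of that module had a median log2 ratio of -0.13, so these 3 do not stand for the module as a whole. At least 1.5-fold lower were 0 of its genes. B9d2 had 3.47 and 7.34 scaled CPM (counts per library size after TMM scaling) in replicates 1 and 2, a log2 ratio of 1.07 or 2.11-fold. Mks1 had 5.41 and 10.1 (log2 ratio 0.90), and Tctn2 10.6 and 16.9 (0.67). Ift88 followed with 8.23 and 12.7 (0.63) and Bbs7 with 7.35 and 11 (0.59). Choroid plexus markers moved the same way, with 5 of 5 above 0 and a median log2 ratio of 0.44, their summed level being 341 and 359 TPM. So did red blood cell markers (5 of 5, median 0.35, summed level 938 and 854 TPM) and Purkinje cell markers (5 of 5, median 0.29, summed level 137 and 109 TPM). The other cell type lists had median log2 ratios of 0.15 (microglia), -0.03 (granule cell progenitor), -0.05 (neuron), -0.07 (radial glia) and -0.13 (endothelium). The part of any of these cell types in the differences was not tested.

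The 2 lower genes were Cep290 and Bbs5. Cep290 had 6.86 scaled CPM in replicate 1 and 2.83 in replicate 2, which is 2.41-fold lower in replicate 2. Bbs5 had 6.86 and 3.91 (log2 ratio -0.81). Just outside the 1.5-fold limit lay Tmem216 at -0.58 and B9d1 at 0.55. Within the BBSome, Bbs5 and Bbs7 thus lay on opposite sides, at -0.81 and 0.59, while the other 5 subunits lay between -0.13 and 0.31.

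**Figure D2:**
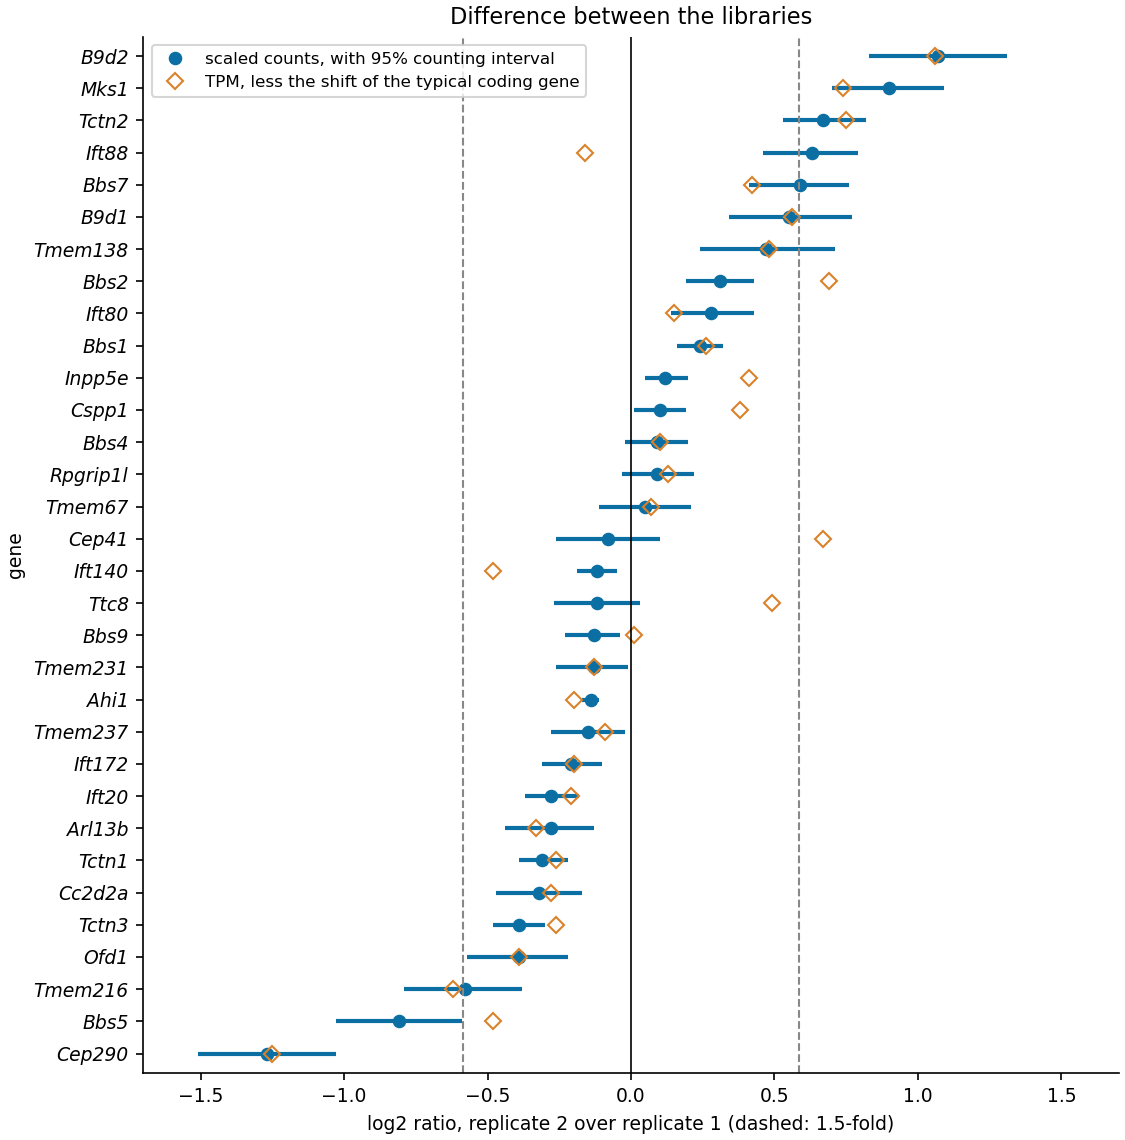
Each row is 1 gene, and the horizontal axis is the log2 ratio of replicate 2 over replicate 1. Filled circles are scaled counts with their 95% counting interval, open diamonds are TPM ratios less the shift of the typical coding gene, and dashed lines mark 1.5-fold; B9d2 and Cep290 lie at the ends by both measures, while Ift88, Cep41 and Ttc8 have diamonds far from their circles.

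For some genes TPM and scaled counts gave different pictures. Ift88 had a log2 ratio of 0.63 in scaled counts and of -0.16 in TPM less the shift of the typical coding gene. Its effective length as deposited went from 1157.51 nt in replicate 1 to 2021.13 nt in replicate 2, as its transcripts were estimated in another mix. Cep41 (-0.08 in scaled counts, 0.67 in TPM) and Ttc8 (-0.12 and 0.49) differed the other way.

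The ratio also moved with base composition across the genes. For 30 of the 32 the GC content of the transcript with most counts was known, and its correlation across genes with the log2 ratio was 0.47 (Pearson) and 0.37 (Spearman), or 0.40 and 0.34 without the 2 genes farthest from the median GC. Over 14108 coding genes the same values were 0.02 and 0.05. B9d2 (56.0% GC) and Mks1 (54.6%) are at the high end, Cep290 (37.9%) and Bbs5 (39.9%) at the low end. Other genes went against this trend: Ift88 (44.4%) and Bbs7 (44.7%) were among the 5 higher genes with a GC content in the lower range, and Cspp1, the lowest in GC at 37.5%, had a ratio of 0.10. The genes share the same libraries and depth, so these are descriptions, and the part of GC content in the ratios was not tested.

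Transcript use was clear for some genes and unsettled for others. A single transcript was listed for 8 genes, among them Bbs1, Bbs4, Ofd1 and Cep290. Of the 24 with several, 13 had the same leading transcript at 50% or more of the gene's TPM in both libraries, against 64.5% of comparable coding genes. The leading transcript differed between libraries for Cspp1, Ift20, Ift88, Mks1 and Tmem216. For Bbs5, Bbs9, Cc2d2a, Ift140, Ift80 and Ttc8 it was the same but under 50% in at least 1 library.

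Ahi1 kept the same leading transcript in both libraries, while the shares of its transcripts moved. Ahi1-201, a transcript of 4850 nt, took 74.88% and 82.68% of the gene's TPM, and the shorter coding transcript Ahi1-202, of 2067 nt, took 25.12% and 17.32%. Ahi1-202 held 1931.05 and 1639.94 counts, while the whole gene held 16824 and 21766. Ift20, with the next highest level, was divided between Ift20-203 (52.26% and 37.79%) and Ift20-201 (34.91% and 47.77%), both coding, so that the leader changed.

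Short transcripts without a coding sequence held a large share of TPM for few counts. In Ift88 the retained-intron transcript Ift88-202, of 667 nt, took 67.85% of the gene's TPM in replicate 1 from 91.29 counts and 22.1% in replicate 2 from 39.4 counts. In Mks1 the retained-intron transcript Mks1-203, of 688 nt, took 51.46% and 43.91% of TPM from 44.89 and 94.35 counts. The coding transcript Ift88-201 held 315.67 and 769.81 counts, and Mks1-201 held 232.15 and 676.65. By counts the coding transcripts led in both genes and in both libraries.

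Cspp1 and Tctn2 were different, since transcripts typed as coding were the minority by counts too. Cspp1 has 27 transcripts in the tables, the largest leader held 18.1% of TPM, and coding transcripts took 34.1% and 39.6% of its counts. None of the 7 Tctn2 transcripts is typed as coding in the annotation used, where Tctn2-207, a processed transcript of 2733 nt, held 70.12% and 72.54% of TPM. With coding transcripts alone, a setting chosen after the data were seen, 28 of the 32 genes reached 1 TPM in both libraries. Besides Cep290 and Ofd1, Tctn2 and Cc2d2a (1.78 and 0.90 TPM) then fell short. A Cc2d2a transcript with 16.8% and 33.75% of the gene's TPM has no type in GENCODE M21 and was counted as not coding. The deposited values were made with GENCODE M4, so these 2 losses depend on the types of the later release.

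**Figure D3:**
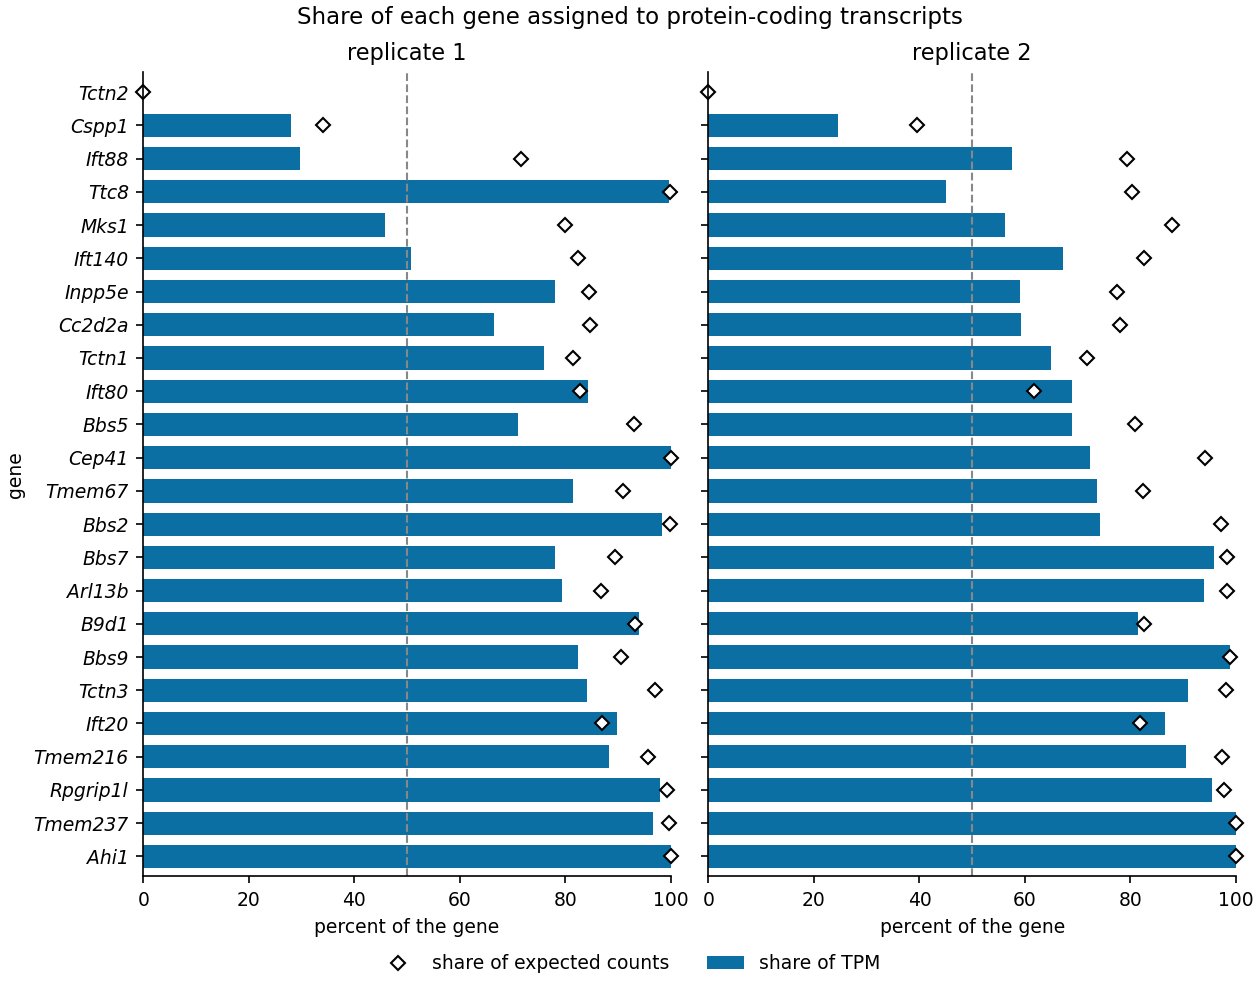
Rows are the 24 genes with several transcripts, bars give the percent of the gene's TPM and diamonds the percent of its expected counts assigned to transcripts typed as protein-coding, with 1 panel per library and a dashed line at 50%. Tctn2 is at 0, Cspp1 lies under 50% by both measures, and Ift88 and Mks1 have short bars in replicate 1 with diamonds at 71.6% and 80.0%.

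Promoters of cilium genes often carry an X-box, the motif bound by RFX transcription factors, which consists of arms that mirror each other around a short spacer. RefSeq windows (GRCm38.p6, from 250 bases before to 50 after a start) were at hand for 29 of the 32 genes, in 36 windows, and not for Tmem67, Ift80 and Cspp1. The single arm searched for was GTTGCC, in either strand. The search for paired arms took GTNNCC followed, after 0 to 3 bases, by its mirror image GGNNAC, and such a match can contain the single arm. The 9 genes whose paired arms include a full single arm are shown, since these matches are the most complete in letters. Each site is 30 bases of the gene's strand, 5′ to 3′, with the paired arms and their spacer in capitals.
Tctn1, chr5:122264411-122264440, minus strand: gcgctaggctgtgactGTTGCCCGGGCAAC
Cep41, chr6:30693858-30693887, minus strand: gtcccgcGTTGCCCTTGGCAACcattgagc
Tmem237, chr1:59120102-59120131, minus strand: tagtcagcGTTGCCATGGCGACgcctccgg
Bbs1, chr19:4906605-4906634, minus strand: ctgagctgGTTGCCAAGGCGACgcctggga
Ahi1, chr10:20952560-20952589, plus strand: tagtctgaGTTACCTAGGCAACagcggcag
Mks1, chr11:87853183-87853212, plus strand: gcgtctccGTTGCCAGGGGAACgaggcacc
Tctn3, chr19:40612350-40612379, minus strand: tcccagcgGTTGCCAGGTAACgggaaccac
Bbs7, chr3:36613489-36613518, minus strand: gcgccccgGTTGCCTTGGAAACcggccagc
Tmem231, chr8:111933781-111933810, minus strand: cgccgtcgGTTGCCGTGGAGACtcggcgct

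Counting the first transcribed base as 0, the first capital lies at 36 in Tctn1, 21 in Ahi1, 11 in Tmem231 and 1 in Bbs1, and at -24 in Mks1, -27 in Tmem237, -121 in Bbs7, -131 in Cep41 and -140 in Tctn3. In Tctn1 and Cep41 both arms are complete and mirror each other, with 2 and 3 bases between them. The spacer is 2 bases in all 9 except Cep41 and Tctn3, where it is 3 and 1. To show the surroundings of such a match, the 250 bases before the start are given for Mks1 and Cep41, which lie in no annotated exon, with the matched letters in capitals.
Mks1, chr11:87852965-87853214, plus strand: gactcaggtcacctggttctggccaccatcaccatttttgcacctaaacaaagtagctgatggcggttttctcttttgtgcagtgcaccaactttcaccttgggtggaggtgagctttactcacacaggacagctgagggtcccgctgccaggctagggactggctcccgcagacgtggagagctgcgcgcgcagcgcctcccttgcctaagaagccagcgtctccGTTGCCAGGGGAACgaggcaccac
Cep41, chr6:30693750-30693999, minus strand: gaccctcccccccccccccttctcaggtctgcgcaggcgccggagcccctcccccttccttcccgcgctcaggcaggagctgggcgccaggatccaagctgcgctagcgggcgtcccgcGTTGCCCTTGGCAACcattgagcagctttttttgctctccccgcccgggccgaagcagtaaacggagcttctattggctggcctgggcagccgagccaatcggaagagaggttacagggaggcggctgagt

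The single arm was found in 17 of the 29 genes (58.6%), against 14.1% of the 27025 genes of the table and 14.8% of its 9225 coding genes at 1 TPM in both libraries. Paired arms were found in 12 (41.4%), against 4.38% and 5.66%. Windows per gene were similar, 36 for 29 genes and 32851 for 27025, and the mean GC content of the windows was 58.7%, between the 53.6% of all genes and the 61.7% of the coding genes at 1 TPM. Letters that match are a description and show no binding.

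Matches were not spread evenly over the roles. In the MKS module 9 of 12 genes held the single arm and 8 held paired arms: Ahi1, Mks1, Tctn1, Tctn2, Tctn3, Tmem216, Tmem231 and Tmem237. In the BBSome 3 of 7 held the single arm (Bbs1, Bbs5 and Bbs7) and 3 paired arms (Bbs1, Bbs4 and Bbs7). Of 4 intraflagellar transport genes 3 (Ift88, Ift140 and Ift172) held the single arm and 0 paired arms, and Cep290 and Rpgrip1l held neither. These sets are small, and differences between them were not tested.

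Some single arms stand alone. They are shown for the transport genes, because these lacked a paired match, again in 30 bases of the gene's strand and with the arm in capitals.
Ift88, chr14:57424080-57424109, plus strand: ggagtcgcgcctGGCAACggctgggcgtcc
Ift140, chr17:25015965-25015994, plus strand: gcgtgttgtgacGGCAACctcgcgcccttg
Ift172, chr5:31291097-31291126, minus strand: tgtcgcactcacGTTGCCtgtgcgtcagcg

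**Figure D4:**
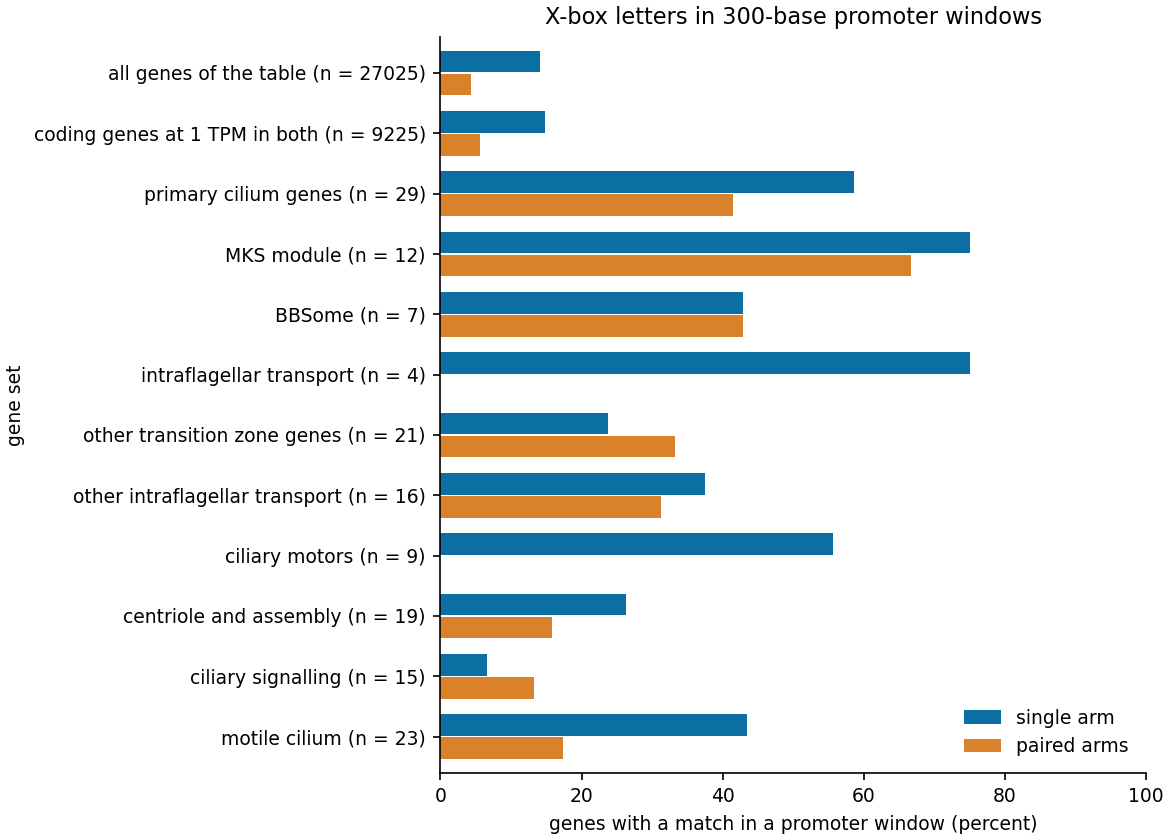
Bars give the percent of genes with a promoter window that hold the single arm (upper bar) or paired arms (lower bar) on either strand, for each gene set with its number of genes. The 29 primary cilium genes stand at 58.6% and 41.4%, above the 14.1% and 4.38% of all genes, and the motile cilium list at 43.5% and 17.4%.

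Levels of genes with and without the arm overlapped widely. The 17 genes with it had a median of 3.82 TPM (1.79 to 42.9) and the 12 without it 4.47 TPM (0.375 to 24.5). Their median log2 ratios between libraries were -0.12 and -0.13. Ift20, the second in level, held neither form.

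The list of RFX factors and Foxj1, the regulator of motile cilia, held Rfx1, Rfx2, Rfx3, Rfx4, Rfx5, Rfx7 and Foxj1, and these 7 reached 1 TPM in both libraries, with a median of 5.34 TPM. Foxj1 had 10.5 and 7.66 TPM, Rfx7 had 9.33 and 6.73 TPM and Rfx1 had 6.61 and 4.96 TPM. Rfx5 (3.70 ± 0.269 TPM) and Rfx2 (1.49 ± 0.297 TPM, SD, n = 2) were the lowest of this list.

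A coding gene starting on the other strand within 5 kb was annotated for 10 of the 32 genes, against 19.1% of coding genes at 1 TPM in both libraries. The sets are not alike: Cep290, Ofd1 and Tctn2 lie outside that class, and Cep290 and Ofd1 are among the 10. Ift20 and Tnfaip1 start 29 nt apart, Tctn3 and Entpd1 133 nt, Ift80 and Smc4 168 nt, Cep290 and Tmtc3 208 nt, Rpgrip1l and Fto 263 nt, and Ift140 and Cramp1l 297 nt. Exons of Cspp1 and Cops5, Tmem138 and Cyb561a3, Tmem67 and Rbm12b2, and Ofd1 and Trappc2 overlap at their starts. In all, 11 of the 32 genes overlap an exon of a gene on the opposite strand. Whether counting used strand is not stated, so reads of such pairs may be divided wrongly. The share of all genes with such an overlap is not given, so this count is a caution on counting only. Rpgrip1l differed most from its neighbour in replicate 1: Fto, an RNA demethylase gene, had 25.68 and 17.09 TPM, which is 17.4-fold and 15.1-fold higher. Tmtc3 exceeded Cep290 by 7.19-fold and 15.1-fold, and Trappc2 exceeded Ofd1 by 6.74-fold and 7.57-fold. Ift20, Tctn3 and Ift140 were instead the higher of their pairs in both libraries, Ift20 by 2.99-fold and 2.08-fold, and in the remaining 4 pairs the neighbour was higher by 1.05-fold to 2.14-fold.

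Other genes of the same machinery were at similar levels. Of 25 other transition zone and Joubert syndrome genes, 24 reached 1 TPM in both libraries (median 3.55 TPM), led by Tmem107 at 22.6 ± 4.67, D430042O09Rik at 18.4 ± 14.3 and Zfp423 at 17.5 ± 4.79 TPM, with Rpgrip1 lowest at 1.45 ± 0.905 TPM (SD, n = 2). Tmem107, also a gene of the MKS module, had a log2 ratio of 1.44, above that of B9d2. It was the only 1 of these 25 genes at least 1.5-fold higher in replicate 2, and their median log2 ratio was 0.04. Of 19 other intraflagellar transport genes with a row, 17 reached 1 TPM (median 2.55 TPM), from Ttc30a2 (0.305 ± 0.0919 TPM) and Ttc26 (1.11 ± 0.219) to Ift27 (9.07 ± 2.50), Ift22 (11.7 ± 3.90) and Ift46 (13.9 ± 4.51 TPM). Ift20 lay above all of these, while the other 4 transport genes described here lay within their range.

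Of 10 other BBS genes, 8 reached 1 TPM in both libraries. Trim32, a ubiquitin ligase gene with roles beyond the cilium, was highest at 44.3 ± 11.4 TPM, and the chaperonin-like genes Bbs10 (1.36 ± 0.764 TPM) and Bbs12 (0.930 ± 0.212 TPM, SD, n = 2) were lowest. The ciliary motors included higher genes, with 8 of 10 at 1 TPM, led by Kif3c at 31.7 ± 9.17, Kifap3 at 27.5 ± 9.20 and Wdr34 at 20.6 ± 5.37 TPM, while Kif17 and Wdr60 were lowest. Kinesin-2 subunits such as Kif3c also carry cargo in axons. Of 20 genes of centriole and cilium assembly, 16 reached 1 TPM, led by Rab11a at 36.8 ± 10.6 TPM, with Cenpj lowest at 0.335 ± 0.177 TPM.

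Genes that signal through the cilium were present as well, with 14 of 17 at 1 TPM in both libraries and a median of 3.33 TPM. Smo, the Hedgehog transducer that enters the cilium, had 21.20 and 13.76 TPM, Gpr161, a receptor that holds the pathway off, 13.85 and 9.92 TPM, and Pkd1, a polycystin, 12.86 and 9.84 TPM. Htr6 had 0.57 and 0.82 TPM, and Arl13a, the paralogue of Arl13b, had 0 counts in both libraries. Of the 32 genes, Ahi1 and Ift20 lay above Smo in both libraries and the others below it.

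Genes of motile cilia, which ependymal and choroid plexus cells use to move fluid, were lower. Only 5 of 25 reached 1 TPM in both libraries, and their median was 0.935 TPM. Rsph9 had 15.16 and 9.70 TPM, while Hydin (0.15 and 0.14 TPM) and Spag17 (0.01 and 0.05 TPM) were near 0. The median of the 32 primary cilium genes exceeded that of the motile list by 2.54 in replicate 1 and 2.29 in replicate 2 on log2(TPM + 0.1), or 2.42 ± 0.18 (SD, n = 2). That SD shows how the gap moved between the libraries and not the spread of genes within the lists. The lists overlapped in mean level, from 0.375 to 42.9 TPM for the 32 genes and from 0.03 to 12.4 TPM for the motile list. The median log2 ratio of the motile list was -0.09, with 7 of 25 at least 1.5-fold higher and 4 at least 1.5-fold lower in replicate 2.

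**Figure D5:**
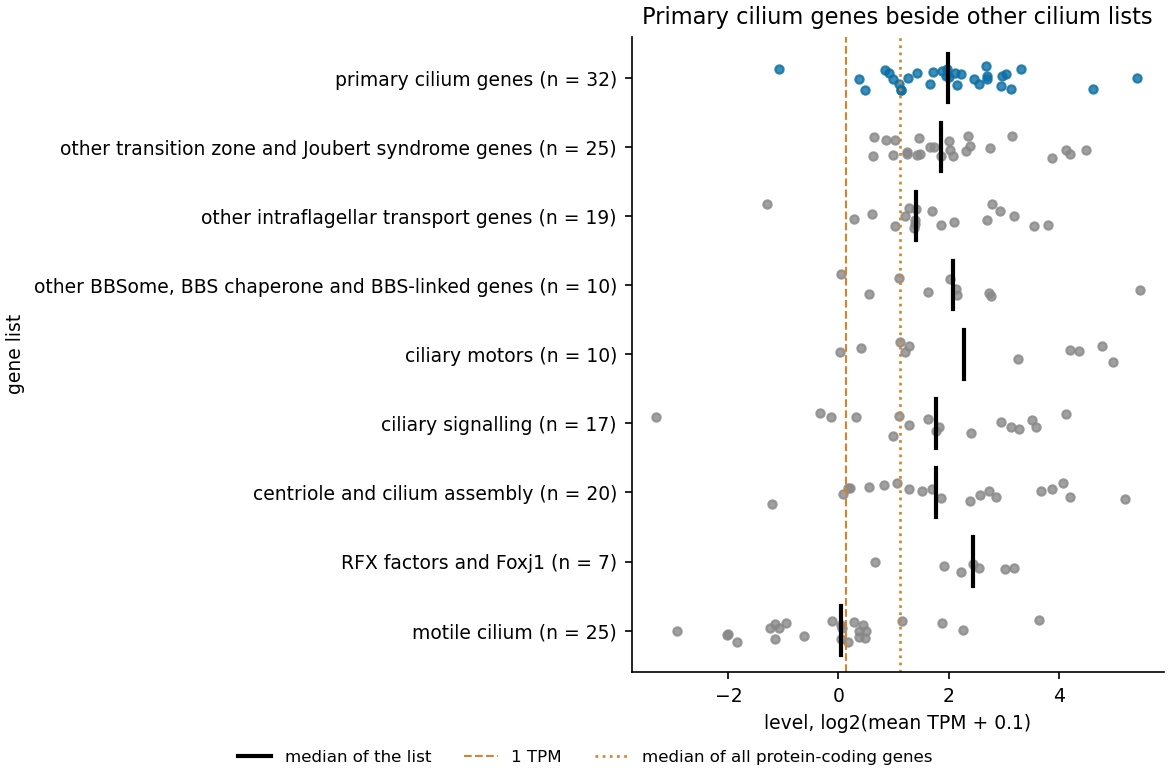
Each point is 1 gene at its mean level over both libraries, log2(mean TPM + 0.1), in rows by list with the list's median as a black bar; points are jittered vertically. The medians of primary cilium, other transition zone, BBS, motor, signalling, assembly and RFX genes lie between 1.78 and 2.44, that of other transport genes at 1.41 and that of motile cilium genes at 0.05, beside 1.12 for all protein-coding genes (dotted).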

How the data were processed

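Total RNA of 2 hindbrain libraries was used as the authors deposited it, as gene tables and transcript tables. The deposited expected counts are estimated read counts that need not be whole, the deposited TPM values divide them by effective length, and the deposited percent values state how a gene's TPM divides among its transcripts. Per the deposited file notes, genome build mm10 and GENCODE M4 were used; aligner, quantifier and use of strand: not given in the sources used here. GENCODE M21 supplied symbols, types and coordinates, and RefSeq the promoter windows. Expected counts were rounded to whole numbers, scaled with TMM in edgeR 4.0.16 (R 4.3.3) and compared as log2 with a prior count of 2; genes averaging under 10 counts were left out. Alternatives were total counts, spike-ins and the size factors of DESeq2 1.42.0, and the ratio step was tested on simulated data. With 1 group no test between conditions exists. Levels use a pseudocount of 0.1 TPM. Named are all 32 members, the 3 highest and 2 lowest genes of the other lists (fewer where a list is summarised), highest and lowest markers, divergent neighbours within 5 kb, and the main transcripts; Bbip1 and other list or overlapping genes outside this rule were chosen after their values were seen. Members and lists were chosen with earlier results of these data known. Ift70a found no row. One list gene that the naming rule covers is not reported here.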

Additional observations from a re-analysis of the deposited data

How the results depend on the processing

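No paired analysis was possible because the series has 1 group. The count of genes at 1 TPM in both libraries stayed between 23 (limit of 2 TPM) and 31 over all settings, including 28 with coding transcripts only, an alternative added after the data were seen. The median level, 1.99 on the log2 scale, moved to 4.08 with TPM rescaled over coding genes, to 2.29 with a pseudocount of 1 TPM and to 1.63 with coding transcripts only; a larger pseudocount lifts low values and a smaller total raises all values by construction. That pseudocount also brought the span from highest to lowest gene from 6.61 to 4.97 and the gap to the motile cilium list from 2.42 to 1.58. The number of genes past 1.5-fold between libraries was 7, and 8 with spike-in scaling; at a limit of 2-fold it was 2. Genes with the same leading transcript numbered 21 at 50% and 11 at 75%, and 26 by share of counts. These counts include the 8 genes with a single listed transcript, which pass at any limit. Without them the count at 50% was 13 of 24. Neighbouring pairs beyond 2 SD numbered 9, and 6 with posterior mean TPM. Using either library alone, the count at 1 TPM was 30 to 31, the median level 1.85 to 2.20, the BBSome span 1.23 to 1.62, the full span 6.30 to 6.91, the gap to motile genes 2.29 to 2.54, and Tmem138 against Tmem216 -1.85 to -0.77. The single arm was found in 16 genes with windows reaching 150 bases before the start. Depth limits the lowest genes: Cep290 rests on 368 and 216 counts, B9d2 on 186 and 560.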
